A study of Mus musculus with 12 samples.

Results

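The 9 genes described here hold B cells in the germinal center or lead them out of it: the chemokine receptors Cxcr4, Cxcr5 and Ccr7, the sphingosine 1-phosphate receptors S1pr1, S1pr2 and S1pr4, the oxysterol receptor Gpr183, the transcription factor Klf2 and the G protein subunit Gna13. They were taken by symbol from the platform annotation, with all their probe sets. That rule used no measured value, but the members were chosen with earlier results of these data known. They are 9 of 18194 genes and 17 of 45101 probe sets on the array, and 8 of the 9 were among the 11458 genes bright enough to be tested.

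Germinal center B cells divide in the dark zone, where Cxcr4 holds them toward Cxcl12, and are selected in the light zone, toward which Cxcr5 draws cells along Cxcl13. Ccr7 pulls lymphocytes toward T cell zones, Gpr183 toward oxysterols at the edge of the follicle, and S1pr1 toward blood and lymph, while S1pr2 signals through Gna13 to confine germinal center B cells. Klf2 switches on S1pr1 in lymphocytes, and Foxo1, a forkhead transcription factor that AKT phosphorylation removes from the nucleus, is known in mouse germinal centers for its part in the dark zone program.

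RNA was measured on 12 arrays of BL#19, a murine Burkitt lymphoma line edited with CRISPR/Cas9, with 3 arrays for each of 4 genotypes. The genotypes lacked both Foxo1 alleles (wt-/mt-), kept the mutant allele alone (wt-/mt+), kept only the wild-type allele (the wt+/mt- arrays) or kept both (wt+/mt+), where the mutant allele (mt) encodes the T24P protein and the label wt stands for the unmutated one. All 4 genotypes share the lymphoma background, and 1 label field names germinal center B cells as the source. The labels do not tell separate clones or cultures apart. A p-value here therefore rests on the spread of 3 arrays that the labels do not show to be independent, and what is read as a genotype may be 1 clone. Levels are log2 values after RMA, which removes much of any shift common to a whole array, and changes are differences of such levels. In this bulk RNA, fewer cells with a transcript and less RNA per cell cannot be told apart.

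The DNA just upstream of the members was read for forkhead motifs, from RefSeq promoters (build GRCm38.p6) that held 6 of the 9 genes. Cxcr4 is shown because its level differed most between genotypes, Klf2 because it is the regulator in the set, and Gna13 because it is the G protein below S1pr2. Each window holds the 250 bases before the annotated start, 5′ to 3′ on the gene's strand, and capitals mark the core forkhead motif AAACA or its reverse complement TGTTT.
Cxcr4: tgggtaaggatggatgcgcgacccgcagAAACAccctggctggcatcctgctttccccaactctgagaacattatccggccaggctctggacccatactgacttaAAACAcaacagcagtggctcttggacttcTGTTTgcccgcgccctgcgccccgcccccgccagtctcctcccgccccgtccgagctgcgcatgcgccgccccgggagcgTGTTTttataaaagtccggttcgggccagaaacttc
Klf2: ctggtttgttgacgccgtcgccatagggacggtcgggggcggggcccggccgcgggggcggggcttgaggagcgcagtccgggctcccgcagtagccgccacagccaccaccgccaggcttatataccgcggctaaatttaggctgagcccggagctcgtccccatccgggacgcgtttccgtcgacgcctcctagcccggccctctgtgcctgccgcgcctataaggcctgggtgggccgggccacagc
Gna13: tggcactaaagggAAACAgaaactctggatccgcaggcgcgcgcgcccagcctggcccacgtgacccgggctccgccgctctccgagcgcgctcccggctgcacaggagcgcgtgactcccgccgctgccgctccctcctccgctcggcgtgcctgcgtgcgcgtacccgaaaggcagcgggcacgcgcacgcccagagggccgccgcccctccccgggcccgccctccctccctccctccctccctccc
The Cxcr4 window (chr1:128592300-128592549, minus strand) held 4 matches, beginning 222, 145, 116 and 36 bases before the start. At least 4 matches occurred in 2.3% of 32851 windows of this length, and at least 1 in 46.4%. The Gna13 window (chr11:109362544-109362793, plus strand) and the S1pr2 and Gpr183 windows held 1 match each, the S1pr4 window 2 and the Klf2 window (chr8:72318812-72319061, plus strand) 0. The longer motif GTAAACA (reverse complement TGTTTAC), which contains the core, occurred in 0 of the 6 windows, against 3.17% of all windows. A match describes the letters of the window and not a bound site, and no match says only that these letters are not in it. Cxcr5, Ccr7 and S1pr1 had no entry in the table used here.

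Foxo1, the edited gene, was read first. It stood at 10.23, 9.39 and 10.34 in wt-/mt-, 11.57, 11.16 and 11.64 in wt-/mt+, 12.10, 11.92 and 11.59 in wt+/mt-, and 11.56, 11.63 and 11.72 in wt+/mt+. All wt-/mt- arrays lay below the others, by a change of -1.65 against wt+/mt+ (SE 0.28, limma adjusted p = 0.00473). That call ended without wt-/mt- replicate 2, where the change was -1.35. Where the edits lie was not stated, so a probe set may miss the edited part, and these levels say nothing on the labels of the single-allele genotypes.

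Markers and array quality varied between genotypes. All 6 B cell markers on the array lay above the array median in every array, as did 3 of 7 T cell, at most 1 of 4 NK cell, 1 of 3 erythroid and at most 3 of 7 stromal markers. Of 5 plasma cell markers 4 lay above it in every array, and of 5 germinal center markers between 3 and 5 did. Of 7 myeloid markers, 4 lay above the median on wt-/mt- arrays, 3 on wt-/mt+ arrays, 4 on wt+/mt- arrays and 3 or 4 on wt+/mt+ arrays, with mean levels of 6.28 to 6.47, 5.85 to 6.07, 6.18 to 6.36 and 5.94 to 6.11. The 5 germinal center markers averaged 7.49 to 10.43 on wt-/mt- arrays, 9.44 to 10.10 on wt-/mt+ arrays, 9.14 to 9.40 on wt+/mt- arrays and 9.90 to 10.14 on wt+/mt+ arrays. After loss of both alleles, where 7.56% of all tested genes were called, 1 of them was called higher, Mef2b (2.16, limma adjusted p = 0.00277), and 0 were called lower. Rgs13, not called, stood at 13.13, 9.01 and 4.00 in wt-/mt-, against 13.05, 13.10 and 13.12 in wt+/mt+. Its wt-/mt- arrays thus ranged from the wt+/mt+ level to far below it. The median change over the 5 germinal center markers was -0.81. Bcl6, the repressor that directs the germinal center program, was lower in wt-/mt- than in wt-/mt+ (-0.79, limma adjusted p = 0.0363), but not without any 1 of 5 arrays (adjusted p = 0.0567 to 0.191). Gcsam, a germinal center signalling protein, was lower in wt+/mt- than in wt+/mt+ (-2.27, adjusted p = 0.0264), but not without any 1 of 4 arrays (0.0647 to 0.232) or with 1 shared spread (0.0947). It exceeded the array median, and so entered the test, only through wt+/mt+ replicates 2 and 3 (6.67 and 6.65) and wt-/mt+ replicate 1 (6.65). The wt+/mt- arrays stood at 4.09 to 4.27, close to wt-/mt- (4.15 to 4.72) and wt-/mt+ replicates 2 and 3 (4.41 and 4.07). Levels this dim may be background. After loss of both alleles 1 of 6 B cell markers was lower (Cd79b, -0.96), as was 1 of 4 tested plasma cell markers (Xbp1, -1.33). The call for Cd79b ended without wt-/mt- replicates 2 or 3 (between -1.31 and -0.7 over all arrays left out in turn), and that for Xbp1 without wt-/mt- replicate 1 (adjusted p = 0.092). No T cell, NK cell, myeloid, stromal or erythroid marker was called there, and Cd68, a myeloid marker, was higher in wt-/mt- than in wt-/mt+ (2.31, adjusted p = 0.0334). That call ended without any 1 of wt-/mt- replicates 2 or 3 or wt-/mt+ replicates 2 or 3 (adjusted p = 0.0515 to 0.244) and with the actin difference as a covariate (0.0529). Cd68 was also lower in wt-/mt+ than in wt+/mt- (-1.45, adjusted p = 0.0326), where S1pr1 and Gna13 were called too, and this call ended without any 1 of wt-/mt+ replicates 2 or 3 or wt+/mt- replicates 1 or 2 (0.0631 to 0.162), with 1 shared spread (0.218) and with the actin covariate (0.147). The actin probe sets differed by 2.17 and 1.71 (3' minus 5') in wt+/mt- replicates 1 and 2, against 1.06 to 1.29 in the other arrays, and the hybridisation control bioD read 12.32 to 12.93 on mt- arrays and 13.35 to 13.56 on mt+ arrays. Every comparison of an mt- with an mt+ genotype crosses the bioD difference, among them wt-/mt+ against wt+/mt- and wt+/mt- against wt+/mt+. The part of the actin and bioD differences in the results was not tested beyond the values given with each gene. Over genes the median SD was 0.261 on wt-/mt- arrays, 0.111 on wt-/mt+ arrays, 0.133 on wt+/mt- arrays and 0.0952 on wt+/mt+ arrays, so each genotype carried its own weight in the fit.

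In the fit on genes, Cxcr4 and S1pr1 were the members called lower when both Foxo1 alleles were lost, and Klf2 stood lower without passing the test. The S1pr1 call ended without wt-/mt- replicate 2. In a separate fit on every probe set, Klf2 (limma adjusted p = 0.0382) and 2 of 7 Gna13 sets were also called lower. That fit called 7.47% of sets. With both alleles lost (wt-/mt- against wt+/mt+), 2 of 8 tested members were called, both lower, where 7.56% of all tested genes were called at a limma adjusted p under 0.05. The members' median change was -0.52, against 0.05 over all genes, -0.47 over the B cell markers, -0.81 over the germinal center markers and -0.50 over the plasma cell markers. In wt-/mt- against wt+/mt-, which differ in the wild-type allele with no mutant allele present, again 2 members were lower. There 3.48% of genes were called. The members' median was -0.72, against -0.01 over all genes, -0.43 over B cell, -0.67 over germinal center and -0.20 over plasma cell markers. In wt-/mt- against wt-/mt+, which differ in the mutant allele with no wild-type allele present, 1 member was lower. Here 8.06% of genes were called. The members' median was -0.59, against 0.01 over all genes, -0.40 over B cell, -0.79 over germinal center and -0.62 over plasma cell markers. These 3 comparisons share the wt-/mt- arrays.

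The other comparisons set genotypes that kept an allele against each other. Loss of the wild-type allele with the mutant allele kept (wt-/mt+ against wt+/mt+) called 0 members, where 0.166% of genes were called, with 4 of 8 members and 1672 of 11458 genes at an unadjusted p under 0.05, and 0 members were called with 1 shared spread. Loss of the mutant allele with the wild-type allele kept (wt+/mt- against wt+/mt+) also called 0 members, where 8.29% of genes were called, with 1 of 8 members and 2975 of 11458 genes under that unadjusted p, and 0 members with 1 shared spread. Between the mutant allele alone and the wild-type allele alone (wt-/mt+ against wt+/mt-), S1pr1 was lower and Gna13 higher, 2 of 8 members, where 7.29% of genes were called. The interaction of both losses, which asks whether the effect of losing one allele depends on the other, called 1 member, Cxcr4, where 3.14% of genes were called. Arrays of a genotype often lay all above or all below those of another. This held for 21.5% of tested genes (wt-/mt+ against wt+/mt+) to 38.4% (wt-/mt- against wt+/mt+), so such separation is weak evidence by itself.

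**Figure D1:**
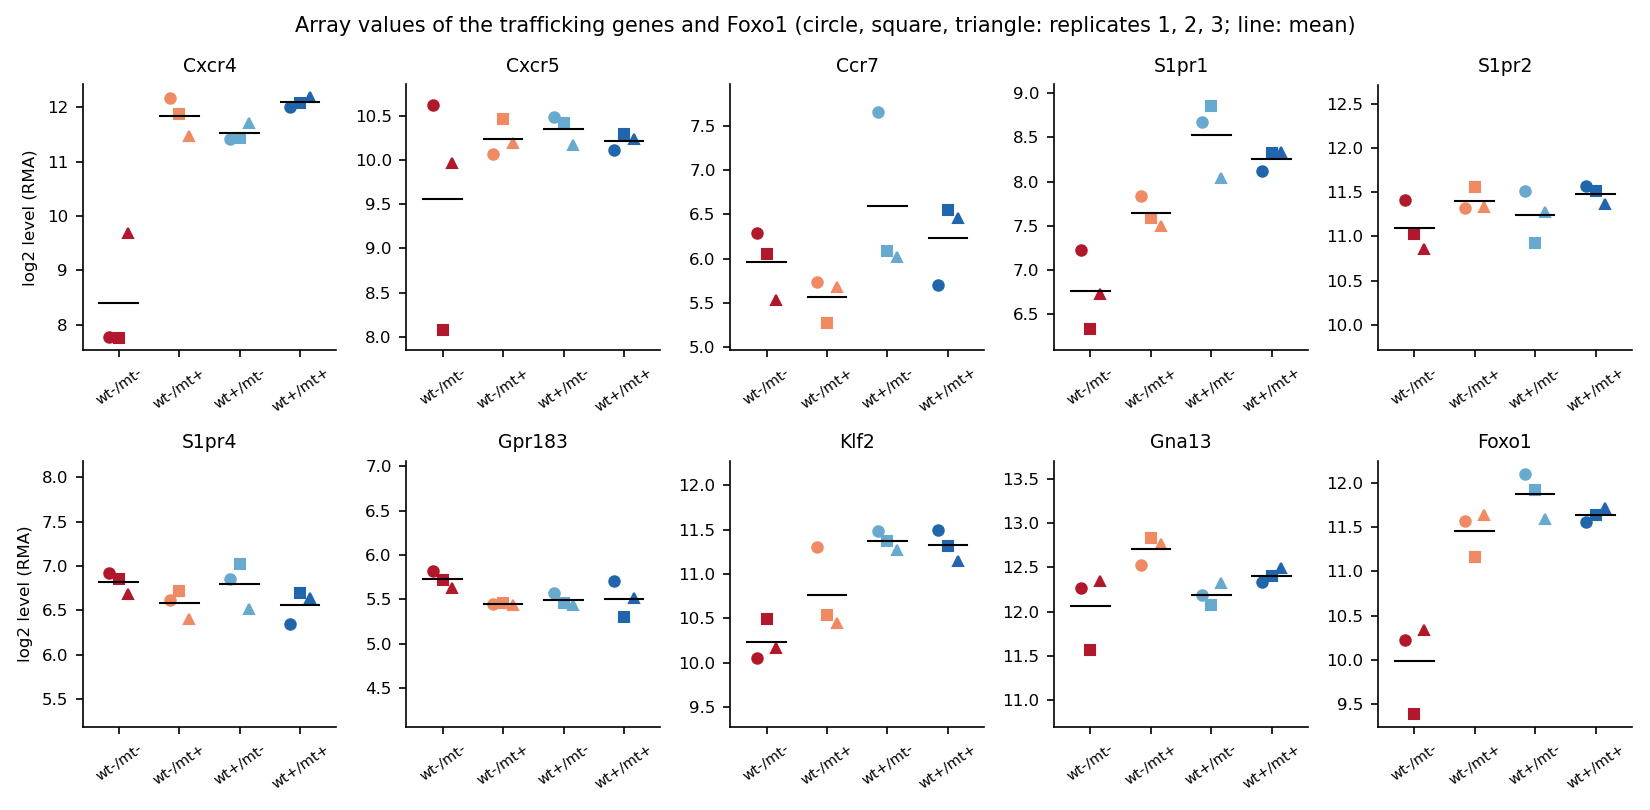
Log2 level (RMA) of the brightest probe set of each of the 9 genes and of Foxo1 in the 12 arrays, by genotype, with replicates 1, 2 and 3 as circle, square and triangle and the mean of 3 arrays as a line (axes differ between panels and do not start at 0). Cxcr4 lay between 7.75 and 9.69 in wt-/mt- and between 11.41 and 12.20 in the other 9 arrays, while Gpr183 stayed between 5.30 and 5.82 throughout.

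Cxcr4, the receptor for Cxcl12, stood at 7.78, 7.75 and 9.69 in wt-/mt-, at 12.17, 11.88 and 11.47 in wt-/mt+, at 11.41, 11.44 and 11.72 in wt+/mt-, and at 12.00, 12.08 and 12.20 in wt+/mt+. All 3 wt-/mt- arrays lay below all 9 others, with replicate 3 well above the rest of its genotype but below every array with an allele. The means were 8.41 ± 1.11 on wt-/mt- arrays, 11.84 ± 0.35 on wt-/mt+ arrays, 11.52 ± 0.17 on wt+/mt- arrays and 12.09 ± 0.10 on wt+/mt+ arrays (SD, n = 3 each). Against wt+/mt+ the change was -3.69 (SE 0.39, 95% interval -4.53 to -2.84, limma adjusted p = 0.000203), a level 12.9-fold lower, and it ranked 11th among the 11458 tested genes counted from the lowest. It was -3.12 against wt+/mt- (SE 0.41, adjusted p = 0.00176) and -3.43 against wt-/mt+ (SE 0.39, adjusted p = 0.000363). The comparisons with wt+/mt+ and wt-/mt+ set mt- arrays against mt+ arrays, which differed in bioD, and the comparison with wt+/mt- does not. The part of bioD in these changes was not tested. All 3 calls held with each of the 12 arrays left out in turn, with the change against wt+/mt+ between -4.33 and -3.36.

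With either allele alone, the change in Cxcr4 did not pass the test. It was -0.26 in wt-/mt+ against wt+/mt+ (95% interval -0.67 to 0.16, limma adjusted p = 0.561), where the arrays overlapped. In wt+/mt- against wt+/mt+ it was -0.57 (95% interval -1.04 to -0.10, adjusted p = 0.121), where all wt+/mt- arrays were lower yet the test was not passed. The mutant and the wild-type allele alone differed by 0.31 (95% interval -0.18 to 0.81, adjusted p = 0.395). The interaction of both losses was -2.86 (SE 0.45, adjusted p = 0.00613), called with each array left out in turn and between -3.5 and -2.53.

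**Figure D2:**
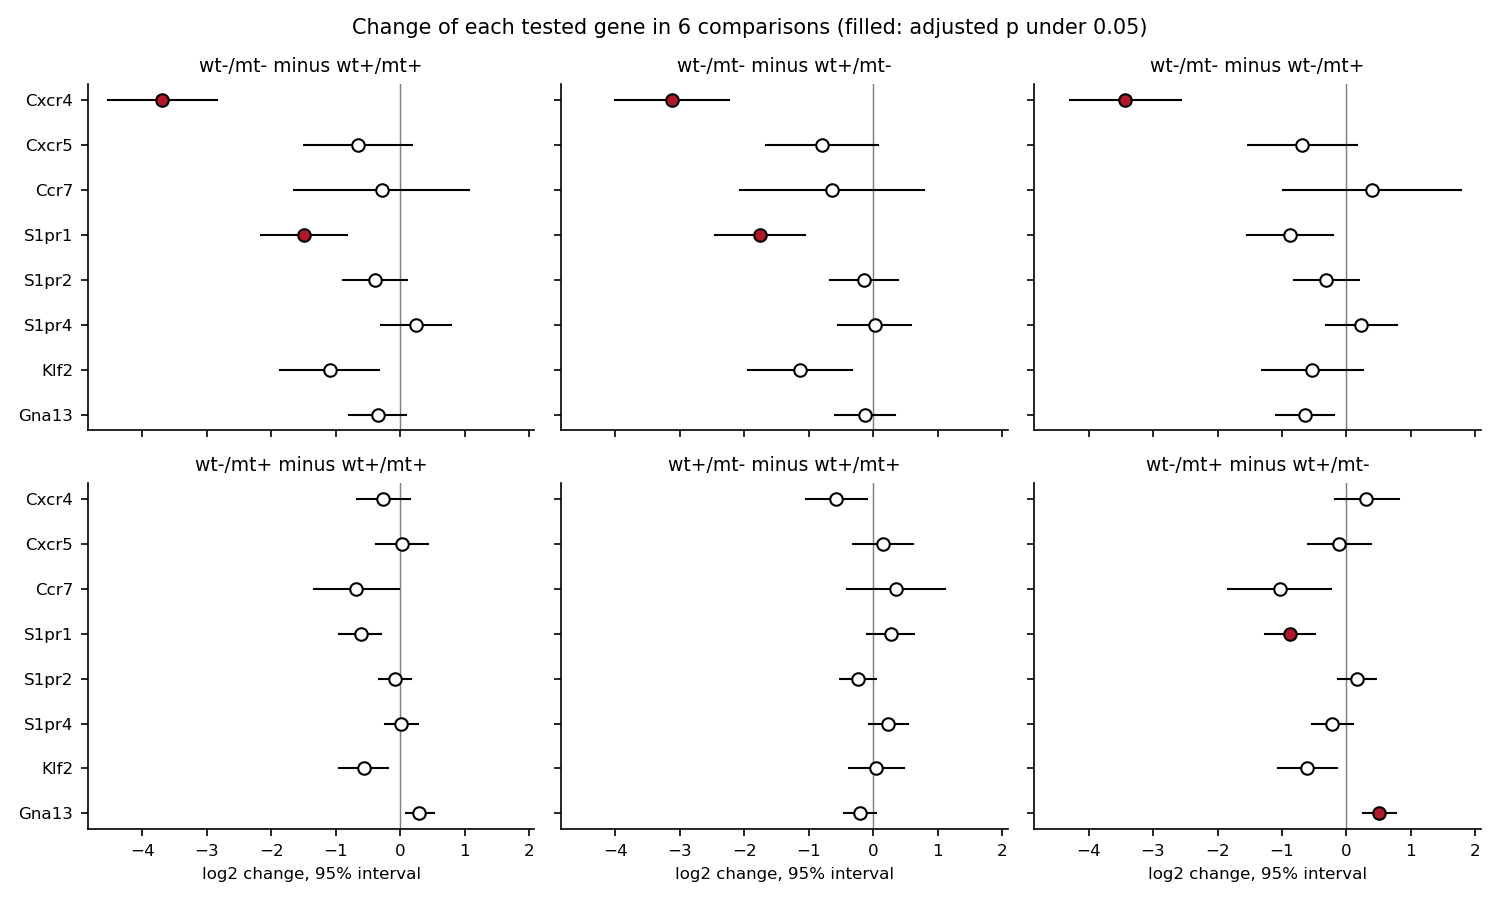
Log2 change (horizontal axis) of the 8 tested members in 6 comparisons, 1 panel each, with 95% intervals from limma; filled points have an adjusted p under 0.05. Cxcr4 was called in the 3 panels that involve wt-/mt- (-3.69, -3.12 and -3.43), and S1pr1 and Gna13 were called in opposite directions in the panel of wt-/mt+ minus wt+/mt-.

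Cxcr5, the receptor for Cxcl13, stood at 10.62, 8.08 and 9.96 in wt-/mt-, at 10.07, 10.46 and 10.19 in wt-/mt+, at 10.48, 10.41 and 10.17 in wt+/mt-, and at 10.11, 10.29 and 10.23 in wt+/mt+. The genotypes overlapped: the highest and the lowest of the 12 values were both wt-/mt- arrays, and replicate 2 of that genotype was the lowest. Against wt+/mt+ the change was -0.65 (95% interval -1.49 to 0.18, limma adjusted p = 0.304), and without wt-/mt- replicate 2 it was 0.08. Cxcr5 was not called in any comparison, with adjusted p between 0.302 and 0.951. Its level was 10.24 ± 0.20 on wt-/mt+ arrays, 10.35 ± 0.16 on wt+/mt- arrays and 10.21 ± 0.09 on wt+/mt+ arrays (SD, n = 3 each).

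Ccr7, the receptor for Ccl19 and Ccl21, was dim, above the array median in 4 of 12 arrays. It stood at 6.29, 6.05 and 5.53 in wt-/mt-, at 5.74, 5.27 and 5.68 in wt-/mt+, at 7.66, 6.09 and 6.02 in wt+/mt-, and at 5.70, 6.55 and 6.46 in wt+/mt+. One array, wt+/mt- replicate 1, stood above the rest, and it also had the highest actin difference. The mutant allele alone lay below the wild-type allele alone in all arrays, by -1.03 (95% interval -1.83 to -0.24, limma adjusted p = 0.0955), not called. Without wt+/mt- replicate 3 the change was -1.32 and called (adjusted p = 0.0413), and without wt+/mt- replicate 1, the high array, it was -0.5 and not called (adjusted p = 0.32).

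S1pr1, the egress receptor, stood at 7.23, 6.34 and 6.73 in wt-/mt-, at 7.84, 7.59 and 7.50 in wt-/mt+, at 8.67, 8.85 and 8.04 in wt+/mt-, and at 8.12, 8.32 and 8.33 in wt+/mt+. The genotypes ran in steps: every wt-/mt- array lay below every wt-/mt+ array, and every wt-/mt+ array below all wt+ arrays, which overlapped one another. Such steps were common. Between wt-/mt- and wt-/mt+, 1969 of 11458 tested genes were fully lower and 2042 fully higher. Separation in either direction held for 21.5% between wt-/mt+ and wt+/mt+ and 31.8% between wt-/mt+ and wt+/mt-. The S1pr1 change in wt-/mt- was -1.49 against wt+/mt+ (SE 0.30, limma adjusted p = 0.012), a level 2.82-fold lower, and -1.76 against wt+/mt- (SE 0.32, adjusted p = 0.0108), 3.38-fold lower. Against wt-/mt+ it was -0.88 (SE 0.31, adjusted p = 0.102), called only without wt+/mt- replicate 3 (0.0411) and with 1 shared spread (0.0256). Without wt-/mt- replicate 2 the first pair of calls ended, at -1.28 (adjusted p = 0.113) and -1.54 (adjusted p = 0.0855).

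With the mutant allele alone, S1pr1 averaged 7.64 ± 0.18, against 8.52 ± 0.42 with the wild-type allele alone (SD, n = 3 each). The difference was -0.88 (SE 0.18, 95% interval -1.27 to -0.49, limma adjusted p = 0.019), with all mutant-only arrays lower. This call rested on the arrays with high actin differences among others: it was -0.80 without wt+/mt- replicate 1 (adjusted p = 0.0692), -0.72 without replicate 2 (0.203), -0.40 without both (0.279), -0.56 with the actin difference as a covariate (0.117), -0.85 without wt-/mt+ replicate 2 (0.0531) and -0.88 with 1 shared spread (0.136). Against wt+/mt+ the mutant-only arrays were also all lower, by -0.61 (95% interval -0.94 to -0.29, adjusted p = 0.138), not called except without wt+/mt- replicate 3 (adjusted p = 0.0421). The interaction of both losses was -1.14 (SE 0.35, adjusted p = 0.108), called only without that same array (-1.38, adjusted p = 0.0201).

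S1pr2, the receptor that confines germinal center B cells, had 2 probe sets. The brighter stood at 11.41, 11.03 and 10.86 in wt-/mt-, at 11.32, 11.56 and 11.33 in wt-/mt+, at 11.51, 10.93 and 11.28 in wt+/mt-, and at 11.57, 11.51 and 11.37 in wt+/mt+. These arrays overlapped in every comparison, and the change after loss of both alleles was -0.39 (95% interval -0.88 to 0.11, limma adjusted p = 0.309). The dimmer set, 1447880_x_at, stood at 10.42, 10.06 and 9.99 in wt-/mt-, at 10.65, 10.72 and 10.43 in wt-/mt+, at 10.36, 9.92 and 9.95 in wt+/mt-, and at 10.90, 10.77 and 10.60 in wt+/mt+. It was lower in all wt+/mt- arrays than in all wt+/mt+ arrays, by -0.68 (SE 0.13, adjusted p = 0.0234) in the fit on every probe set, which called 4.00% of 45101 sets there, while the brighter set gave -0.24 (adjusted p = 0.312). The suffix x marks a set whose probes can match other transcripts, so this level is uncertain.

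S1pr4, another sphingosine 1-phosphate receptor of lymphocytes, lay between 6.35 and 7.02 in all 12 arrays. It averaged 6.81 ± 0.12 on wt-/mt- arrays, 6.58 ± 0.17 on wt-/mt+ arrays, 6.80 ± 0.26 on wt+/mt- arrays and 6.56 ± 0.19 on wt+/mt+ arrays (SD, n = 3 each), with overlap in every comparison. Its change after loss of both alleles was 0.25 (95% interval -0.29 to 0.79, limma adjusted p = 0.554). Gpr183, the oxysterol receptor, was below the array median in all 12 arrays with both of its probe sets and was not tested among the brighter genes. Its brighter set averaged 5.72 ± 0.10 on wt-/mt- arrays, 5.45 ± 0.01 on wt-/mt+ arrays, 5.49 ± 0.07 on wt+/mt- arrays and 5.51 ± 0.20 on wt+/mt+ arrays, and a level this dim may be background.

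Klf2, the transcription factor that switches on S1pr1, stood at 10.05, 10.49 and 10.16 in wt-/mt-, at 11.31, 10.54 and 10.45 in wt-/mt+, at 11.48, 11.37 and 11.27 in wt+/mt-, and at 11.50, 11.32 and 11.15 in wt+/mt+. The wt-/mt- arrays lay below all wt+ arrays, and the mutant-only arrays were split, with replicates 2 and 3 close to wt-/mt- and replicate 1 among the wt+ arrays. The change was -1.09 against wt+/mt+ (SE 0.35, 95% interval -1.86 to -0.32, limma adjusted p = 0.0794) and -1.14 against wt+/mt- (SE 0.37, adjusted p = 0.118), neither called. The first passed at 0.0382 in the fit on every probe set, which called 7.47% of sets, at 0.0429 with no filter on dim genes, at 0.00564 with 1 shared spread and at 0.00869 without wt-/mt+ replicate 1, an array of neither genotype.

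That same array set the Klf2 level of the mutant allele alone. With it, the mutant-only arrays differed by -0.56 from wt+/mt+ (limma adjusted p = 0.196) and by -0.61 from wt+/mt- (adjusted p = 0.0892). Without it, both were called, at -0.83 (adjusted p = 0.0329) and -0.88 (adjusted p = 0.0128), with 2 arrays left in wt-/mt+. The wild-type allele alone and both alleles together differed by 0.05 (95% interval -0.38 to 0.48, adjusted p = 0.906).

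**Figure D3:**
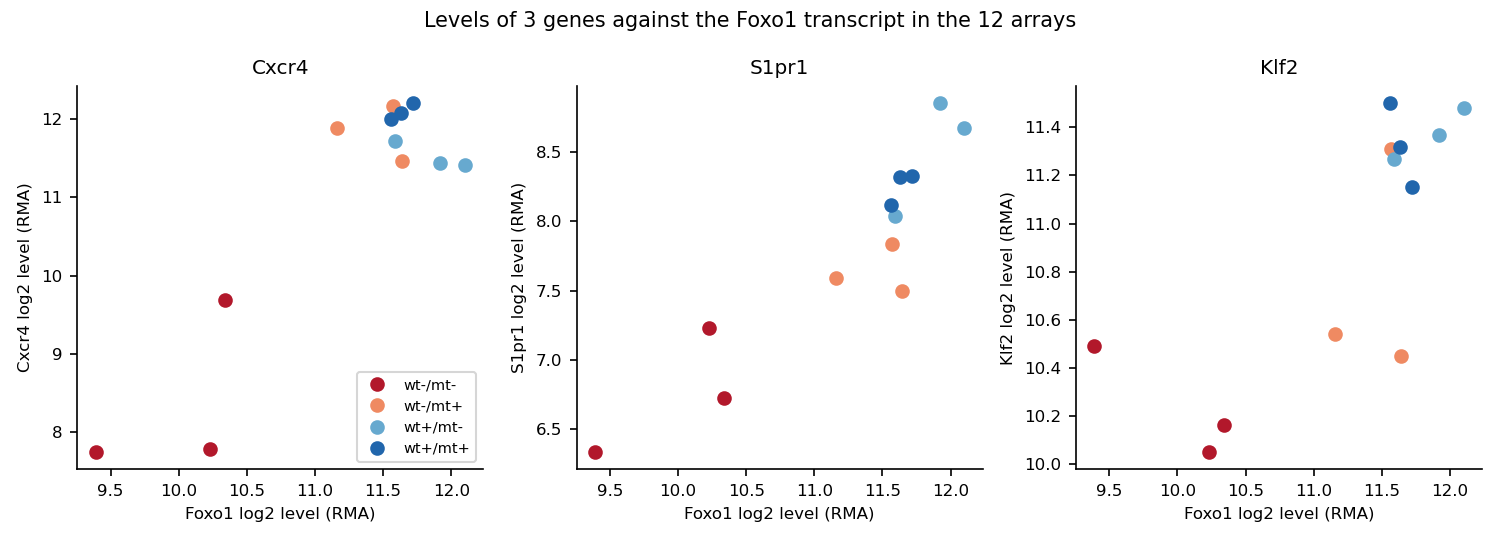
Log2 level (RMA) of Cxcr4, S1pr1 and Klf2 on the vertical axes against that of Foxo1 on the horizontal axis, 1 point per array, coloured by genotype. The wt-/mt- arrays, with Foxo1 between 9.39 and 10.34, stand apart from the other 9, and the wt-/mt+ points lie lowest among those 9 for S1pr1.

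The plot against the Foxo1 transcript shows 2 clusters of arrays rather than a slope for Cxcr4, so no correlation over the 12 arrays was computed. Among arrays that kept an allele, S1pr1 lay between 7.50 and 7.84 in wt-/mt+ and between 8.04 and 8.85 in the wt+ arrays, whereas Cxcr4 in wt-/mt+ overlapped both wt+ genotypes.

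Gna13, the G protein subunit through which S1pr2 signals, had 7 probe sets. The brightest stood at 12.27, 11.57 and 12.35 in wt-/mt-, at 12.53, 12.83 and 12.76 in wt-/mt+, at 12.19, 12.07 and 12.32 in wt+/mt-, and at 12.33, 12.40 and 12.49 in wt+/mt+. The mutant-only arrays were the highest of the 12, and the means were 12.06 ± 0.43 on wt-/mt- arrays, 12.71 ± 0.15 on wt-/mt+ arrays, 12.19 ± 0.13 on wt+/mt- arrays and 12.41 ± 0.08 on wt+/mt+ arrays (SD, n = 3 each). The mutant allele alone exceeded the wild-type allele alone by 0.51 (SE 0.12, 95% interval 0.25 to 0.77, limma adjusted p = 0.0303), a 1.43-fold higher level. The call ended with 1 shared spread (0.204), with the actin difference as a covariate (0.43, adjusted p = 0.117), without wt+/mt- replicates 1 (0.51, 0.0755), 2 (0.45, 0.275) or both (0.38, 0.258), and without wt-/mt+ replicates 2 (0.45, 0.0808) or 3 (0.49, 0.0655).

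The other Gna13 sets gave the same sign in that comparison, and after loss of both alleles the sets differed in size. All 7 sets were higher in wt-/mt+ than in wt+/mt-, by 0.46 to 0.77, of which 1 was called in the fit on every probe set (1460317_s_at, 0.77, limma adjusted p = 0.045), where 3.03% of sets were called. After loss of both alleles all 7 were lower, and 2 were called, where 7.47% of sets were called: 1422556_at by -1.06 (SE 0.17, adjusted p = 0.00352) and 1430295_at by -1.05 (SE 0.28, adjusted p = 0.0396). The brightest gave -0.34 there (SE 0.20, adjusted p = 0.308), with overlapping arrays. Against wt-/mt+ all 7 sets were lower in wt-/mt-, and 3 were called, where 6.71% of sets were called: 1430295_at (-1.17, adjusted p = 0.0248), 1422556_at (-1.10, adjusted p = 0.00256) and the brightest (-0.65, adjusted p = 0.0492). In the fit on genes the brightest was not called (adjusted p = 0.0763), except with 1 shared spread (0.0296) and without wt-/mt+ replicate 1 (0.0496). Sets of 1 gene share its RNA and can read different ends or splice forms, so they are not replicates.

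**Figure D4:**
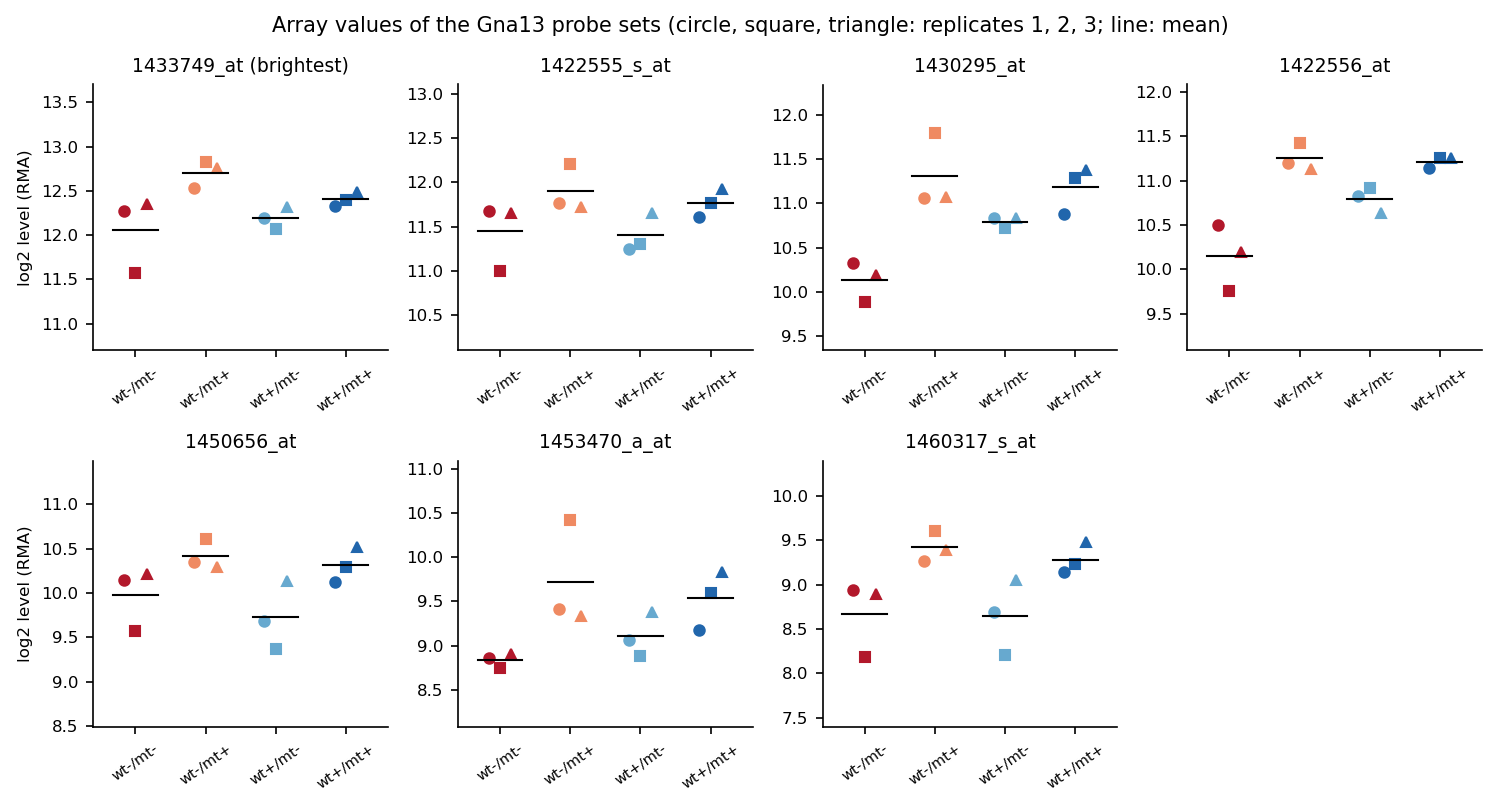
Log2 level (RMA) of the 7 Gna13 probe sets in the 12 arrays, 1 panel per set, by genotype, with replicates as circle, square and triangle and the mean as a line. The sets 1422556_at and 1430295_at lay below all other arrays in wt-/mt- (means 10.15 and 10.13, against 11.21 and 11.19 in wt+/mt+), while the brightest set overlapped.

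The genes whose pattern over the 12 arrays came closest to the called members were found among 11457 others by the root mean square difference after each gene was centred on its mean. For Cxcr4 they were Ppp3cc, a calcineurin catalytic subunit, at 0.33, Crisp3 at 0.34 and Mirt1 at 0.50, where Cxcr4's own deviation was 1.57. For S1pr1 the nearest was Foxo1 itself at 0.31, then Dennd3 at 0.32 and Jund, an AP-1 transcription factor, at 0.34, where its own deviation was 0.73. For Gna13 they were Tmem160 at 0.11, the chloride channel protein Clic1 at 0.12 and the lysosomal fucosidase Fuca1 at 0.13, where its own deviation was 0.31. Ppp3cc averaged 7.20 on wt-/mt- arrays, 10.69 on wt-/mt+ arrays, 10.39 on wt+/mt- arrays and 10.43 on wt+/mt+ arrays, and Dennd3 averaged 10.38, 11.55, 11.92 and 11.71 in the same genotypes. These are descriptions of 12 arrays with no test.

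Around the receptors, 4 lists of pathway genes were read. Of 28 tested G proteins and migration effectors, 1 was higher and 3 were lower after loss of both alleles, with a median of -0.07. Of all tested genes, 7.56% were called there. Dock8, an exchange factor for Cdc42, stood at 8.51, 7.40 and 9.00 in wt-/mt-, against 6.34, 6.13 and 6.22 in wt+/mt+, a rise of 2.07 (SE 0.35, limma adjusted p = 0.00498) called with each array left out. The exchange factors Dock10 and Vav3 were lower, by -1.70 (SE 0.44, adjusted p = 0.0347) and -1.31 (SE 0.29, adjusted p = 0.0196), and so was the G protein subunit Gng2 (-0.88, SE 0.18, adjusted p = 0.0134). The last 3 calls depended on single arrays. Dock10's ended without wt-/mt- replicates 2 or 3, without replicates 2 or 3 of wt+/mt+ (between -2.12 and -1.35) or with the actin covariate (-1.71, 0.071), Vav3's without wt-/mt- replicates 1 or 3 (between -1.73 and -0.96), and Gng2's without wt-/mt- replicates 1 or 2 (between -0.98 and -0.82).

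Of 17 tested genes of the KLF family and the ERK5 pathway, 0 were higher and 2 lower after the same loss, with a median of -0.21. The share over all tested genes was 7.56%. Mef2a, of the MEF2 factors that act below ERK5 and drive Klf2, stood at 10.22 ± 0.21 in wt-/mt-, against 10.98 ± 0.07 in wt+/mt+ (-0.76, SE 0.16, limma adjusted p = 0.0159), which was not called without wt-/mt- replicates 1 or 2 (between -0.84 and -0.64). Klf13 stood at 9.95 ± 0.42, against 10.64 ± 0.05 (-0.69, SE 0.18, adjusted p = 0.0368), which was not called without wt-/mt- replicates 1 or 2, without wt+/mt+ replicates 2 or 3 (between -0.92 and -0.51) and with the mean of all its probe sets (-0.36, 0.192). Of 6 tested trafficking receptors beyond the members, 1 was higher, the chemokine receptor Ccr10 (0.83, SE 0.23, adjusted p = 0.0484), which was called with 5 of 12 arrays left out in turn (0.58 to 0.99). Of 13 tested genes for ligands and their metabolism, 0 were called, with a median of 0.16.

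Between the mutant and the wild-type allele alone, the effectors held 1 higher and 5 lower calls of 28, where 7.29% of all tested genes were called. Arhgef1, an exchange factor that Gna13 activates, stood at 9.29, 9.40 and 9.23 with the mutant allele alone, against 10.31, 9.95 and 9.89 with the wild-type allele alone, lower by -0.75 (SE 0.12, limma adjusted p = 0.0104), in the opposite direction to Gna13. Gng2 was higher (0.48, adjusted p = 0.0259), and Dock2, a Rac exchange factor, and Gna11, a G protein subunit, were lower (-0.48 and -0.42, adjusted p = 0.034 and 0.0383). Of the ligand genes, 3 of 13 were lower: Cd74, the invariant chain (-0.75, adjusted p = 0.0203), Plpp3, a lipid phosphatase (-0.74, 0.033), and Sphk2, a kinase that makes sphingosine 1-phosphate (-0.54, 0.0278). Of the other receptors, Cxcr3 was higher (0.75, adjusted p = 0.0286) and the prostaglandin receptor Ptger4 lower (-1.04, adjusted p = 0.0455). Every one of these 9 calls ended without wt+/mt- replicate 2, a high-actin array, and with 1 shared spread, where Arhgef1 gave an adjusted p of 0.106. Another Arhgef1 probe set gave -0.23, and the second Sphk2 set 0.24, of the other sign. The 3 Dock2 sets ranged from -0.48 to -0.04, and the 4 Gng2 sets from 0.13 to 0.48.

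Pathway genes were also called in the remaining comparisons. Of all tested genes, 3.48% were called in wt-/mt- against wt+/mt- and 8.29% in wt+/mt- against wt+/mt+. The share was 8.06% in wt-/mt- against wt-/mt+ and 3.14% in the interaction. In wt-/mt- against wt+/mt-, Dock8 was higher (1.91, limma adjusted p = 0.0151) and Vav3 (-1.48), Mef2a (-0.81) and Klf13 (-0.80) were lower. Each of these calls ended without wt-/mt- replicate 1, among other arrays. The 5 Mef2a probe sets above the array median differed in sign, from -1.31 to 0.09 there and from -1.26 to 0.13 in the interaction. Loss of the mutant allele with the wild-type allele kept gave 3 higher and 1 lower effectors, among them Arhgef1 (0.61, limma adjusted p = 0.0151), Gna11 (0.49) and Was, an actin regulator (0.40), with Gng2 lower (-0.50), and these 4 calls ended without wt+/mt- replicate 2. In the same comparison Sphk2 (0.45, adjusted p = 0.0388) and Ccr10 (0.46, adjusted p = 0.0469) were higher, and these calls ended without wt+/mt- replicates 1 or 2 among others. Every effector, Sphk2 and Ccr10 call of this comparison also ended with 1 shared spread (limma adjusted p = 0.104 to 0.296). Another Arhgef1 probe set gave 0.04 there, and the second Sphk2 set -0.07, of the other sign. Loss of the mutant allele where the wild-type allele was already absent raised P2ry10, a receptor of lymphocytes (1.67, adjusted p = 0.0332), and lowered Cxcr3 (-1.15, adjusted p = 0.0333), calls that ended without any 1 of 3 and of 5 arrays. Dock8 (1.44), Dock10 (-2.05), Vav3 (-1.63), Gng2 (-0.86) and Mef2a (-0.80) were called there too, and each of these calls ended without at least 1 wt-/mt- array. The interaction called Dock10 (-2.16, adjusted p = 0.039), Vav3 (-1.80, 0.0151) and Mef2a (-0.86, 0.0306), calls that ended without any 1 of 7, 1 and 6 arrays, and no gene of the 4 lists was called for loss of the wild-type allele with the mutant allele kept.

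**Figure D5:**
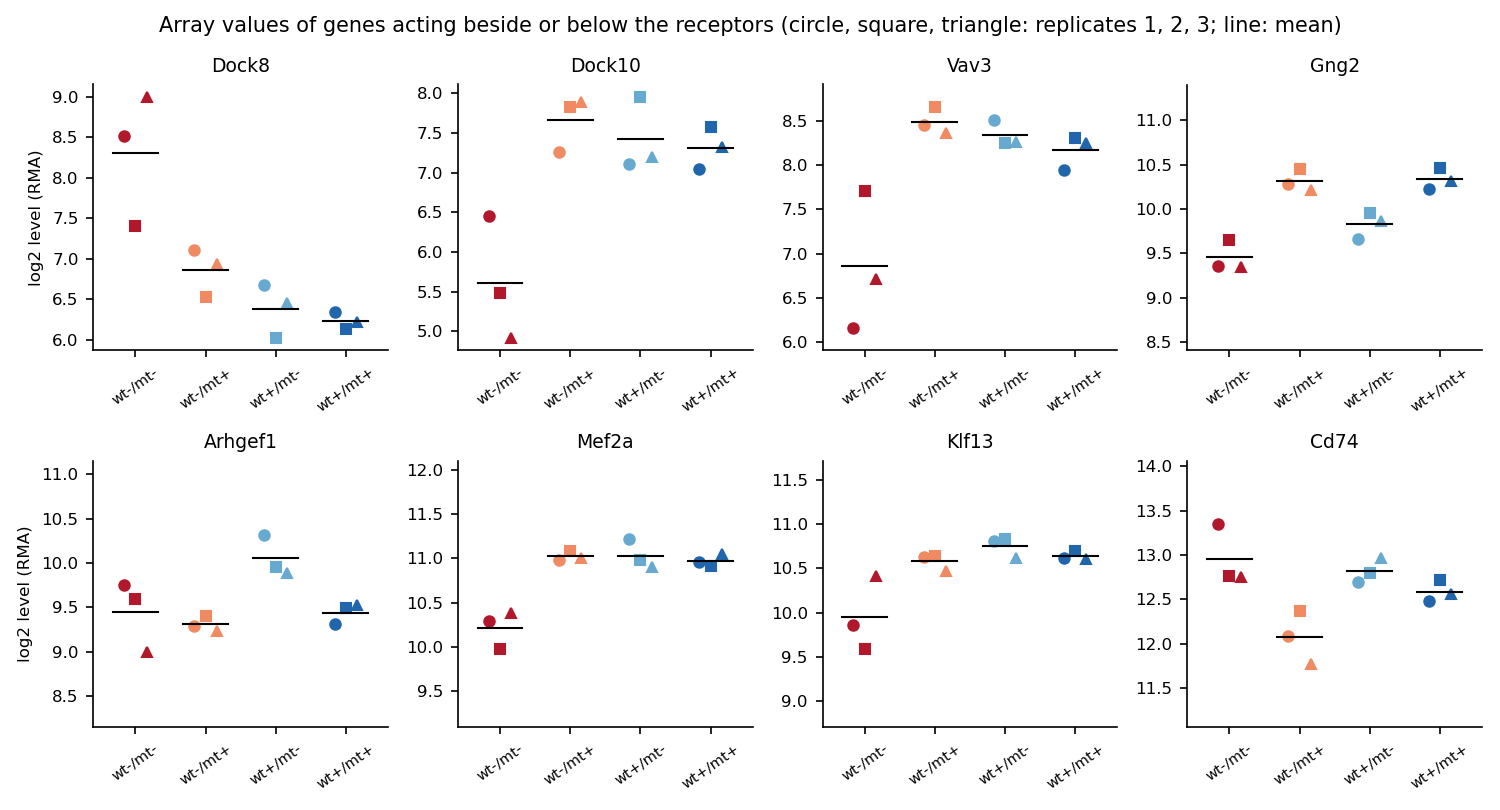
Log2 level (RMA) of 8 pathway genes in the 12 arrays, by genotype, with replicates as circle, square and triangle and the mean as a line. Dock8 lay higher in all wt-/mt- arrays (7.40 to 9.00) than in wt+/mt+ arrays (6.13 to 6.34), and Arhgef1 lay highest with the wild-type allele alone (9.89 to 10.31).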

How the data were processed

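RNA levels came from 12 Affymetrix 3' IVT arrays, 3 for each of 4 genotypes taken from the labels. The submitters' processing notes name RMA, with no version, and the deposited log2 values per probe set are the authors' RMA output. The log base was taken from RMA's usual output and the range of the values. Arrays give no counts, so their number limits the precision.

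Gene symbols came from the platform annotation held by GEO: of 45101 probe sets, 34958 had 1 gene, 932 several and 9211 none in that table. A gene's brightest probe set (by mean) stood for it, and 11458 of 18194 genes whose set exceeded the array median in 3 or more arrays were tested. The model (limma 3.58.1, R 4.3.3) had a mean and an arrayWeights weight for each genotype, followed by eBayes, and a gene was called where its p, adjusted by Benjamini-Hochberg across all tested genes, was under 0.05. The weights were 0.253 (wt-/mt-), 1.68 (wt-/mt+), 1.08 (wt+/mt-) and 2.18 (wt+/mt+). The same model was fitted to every probe set with no filter. The fit was tested on simulated data. Named genes were all members, Foxo1, called genes of 4 pathway lists (at most 4 a list and comparison) and the 3 nearest genes by pattern to each called member. Called marker genes and Rgs13 were named after their values were seen. The members and lists were chosen with earlier results of these data known. Promoters came from a RefSeq table of GRCm38.p6. One item is not reported here. Alternatives were equal weights, other filters, probe set means, 2 scalings, the actin difference as a covariate and arrays left out. Figures were drawn with matplotlib 3.10.9.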

Additional observations from a re-analysis of the deposited data

Results flagged for a closer look

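Cxcr4 lay lower in wt-/mt- than the sum of the single-loss changes would give. The labels do not tell clones apart, so this is a difference between genotype means. The interaction was -2.86 (SE 0.45, limma adjusted p = 0.00613), which is the change of -3.43 in wt-/mt- against wt-/mt+ minus the change of -0.57 in wt+/mt- against wt+/mt+. The difference between the effects was tested by the interaction term itself. Groups of 3 arrays are too small for the test of single outlying samples.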

How the results depend on the processing

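No paired analysis was possible because the array numbers run from 1 to 12 and no number is shared between genotypes. Cxcr4 kept its sign and its calls in the 3 comparisons against wt-/mt- and in the interaction under every alternative run. With 1 shared spread, genes called were 2535 for loss of both alleles, 1670 and 2386 for the wild-type and the mutant allele lost without the other, 0 and 21 for each lost with the other kept, and 10 between the single alleles (mutant alone against wild-type alone), where 0 members were called, while 3 members were called for the mutant allele lost without the wild-type allele. With no filter the first 4 counts were 1515, 641, 1393 and 6, the last for the wild-type allele lost with the mutant kept, which gave 9 with the actin covariate and 9 with centred arrays. The actin covariate gave 199 genes and 0 members between the single alleles. Without wt+/mt- replicates 1 and 2, and with 2 weights, genes called were 244 and 46 (wild-type allele lost without and with the mutant), 100 (mutant allele lost with the wild-type), 68 with 0 members (single alleles) and 230 (interaction). The mean of all probe sets called 1 member for the mutant allele lost with the wild-type kept, S1pr2 (-0.46, limma adjusted p = 0.0447). With 1 array left out, genes called ranged from 329 to 1054 (both alleles lost), 175 to 784 and 386 to 936 (wild-type and mutant lost without the other), 4 to 51 and 9 to 1433 (with the other kept), 5 to 1919 (single alleles) and 177 to 400 (interaction), and members called from 1 to 3, 1 to 3, 1 to 2, 0 to 1, 0 to 1, 0 to 3 and 1 to 2 in the same order. Arrays left out leave fewer samples, equal weights change the spread by construction, and other causes were not tested. Of single-gene values under an alternative, 1876 kept sign and side of the threshold, 287 lost and 21 gained a call, 54 values called in neither changed sign, and 0 called values reversed. With 3 arrays a genotype, and 1 array group of large spread, a missed call does not show equal levels.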

Other observations

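Single arrays of 1 genotype stood far apart for some genes of the lists, and 1 such gene was picked after its values were seen. Rhoh, a small GTPase of blood cells, stood at 9.15, 4.62 and 4.98 (log2) in wt-/mt-, at 5.39, 8.04 and 4.99 in wt-/mt+, at 4.75, 5.07 and 4.86 in wt+/mt-, and at 7.20, 7.17 and 7.25 in wt+/mt+. The array with the highest Rhoh in wt-/mt- (replicate 1) also had the highest Cxcr5 (10.62) and S1pr1 (7.23) of its genotype, and a low Cxcr4 (7.78). Over 3 arrays such a coincidence carries no test.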
